A study of Rattus norvegicus with 8 samples.

Results

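The miR-135 family was examined in the kidney of rats given aristolochic acid (AA), a plant compound that damages the kidney and causes tumors there. Its members were the rows of the deposited count table whose name begins with rno-miR-135a or rno-miR-135b. There were 4 of them among 620 miRNAs, namely miR-135a, miR-135b and their opposite arms, miR-135a* and miR-135b*, the star marking the arm of the hairpin that is usually less abundant. The rows were taken by name, but the family itself was chosen by the measured difference of miR-135a between AA-treated and control rats, so that this difference is described for its members and not tested.

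Small RNA was sequenced from the kidneys of 8 male Big Blue rats, a Fisher 344 line that carries a reporter transgene for scoring mutations, with 1 library per rat. The 4 AA-treated rats were 6 weeks old at the start and were gavaged 5 times a week with the sodium salt of AA, at a dose of 10.0 mg/kg in 4 ml/kg. The 4 control rats were given 0.9% sodium chloride on that schedule. The treatment protocol gives 12 weeks for every rat, whereas the individual labels run from 12 weeks for rat 1 of either group over 13 and 14 to 15 weeks for rat 4. All rats are labelled as 18 weeks old, which goes with 12 weeks from a start at 6 weeks and not with the longer labels. RNA came from a piece cut from the kidney, and the region it was cut from is not given in the sources used here. Fewer cells of a type, less miRNA per cell and a different region in the piece cannot be told apart in these counts.

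miRNAs silence messenger RNAs mainly through their seed, bases 2 to 8 from the 5′ end, and arms with a shared seed are expected to bind overlapping sets of targets. The abundant arms of miR-135a and miR-135b share such a seed. Known targets include the mRNA of APC, a brake on Wnt signalling, of the kinase JAK2 and of NR3C2, the mineralocorticoid receptor through which aldosterone drives sodium uptake in the distal nephron. Messenger RNAs and proteins were not analysed here.

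The mature sequences show which members can act on the same targets and which can be confused in sequencing. All 4 members were matched to RefSeq sequences of the GRCr8 assembly, the unstarred names to the 5p arms and the starred names to the 3p arms. The seed is in capitals.
miR-135a: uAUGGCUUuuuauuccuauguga
miR-135b: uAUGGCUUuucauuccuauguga
miR-135a*: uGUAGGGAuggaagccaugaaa
miR-135b*: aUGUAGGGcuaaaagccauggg
In this assembly, miR-135a lies on the minus strand at chr7:28499221-28499243 and miR-135a* at chr7:28499183-28499204, within the span of the long non-coding RNA gene LOC102548260. miR-135b lies on the plus strand at chr13:46191033-46191055 and miR-135b* at chr13:46191072-46191093, within the spans of Lemd1 and Blacat1. No other miRNA gene lies within 50 kb of either hairpin.

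miR-135a and miR-135b thus come from different chromosomes and share the seed AUGGCUU. Their 23-base sequences differ at 1 position, U11C, counted from the 5′ end with the base of miR-135a first. How reads of the 1 sequence that carried an error at this base were assigned is not given in the sources used here, and the counts of both rows are uncertain to that extent. The starred arms have different seeds, GUAGGGA and UGUAGGG, because miR-135b* starts 1 base earlier. With this shift they were identical at 16 of 21 positions, the first 7 included. Among the 724 mature rat miRNAs in the RefSeq table, no miRNA outside the family had a seed identical to that of a member, and 1, miR-146b-3p, shared 6 consecutive seed bases with miR-135a*. miR-146b-3p was not matched to a row of the count table. The row rno-mir-146b* may be this arm, but the match could not be made and no value is given.

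The libraries held 13412373 to 15616670 counts on miRNAs, with overlapping ranges in the groups. Normalized counts are counts divided by the median-of-ratios size factor of the rat. Control rat 4 stood apart from the other control rats, from which its counts differed by a chi-square of 1481 to 2156 per degree of freedom, against 394 to 607 among the other 3. Among the AA-treated rats the same measure ran from 626 to 3457, the highest being between rats 3 and 4. In AA-treated rat 2, both arms of the liver miRNA miR-122 summed to 7754 normalized counts, against at most 759 in a control rat. The 22 listed miRNAs known from renal epithelium were all detected. They made up 29.0% to 34.6% of the counts in control and 26.8% to 36.9% in AA-treated rats. No other tissue was compared, so that these values cannot tell kidney from another epithelial tissue.

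miR-135a, the main product of its hairpin, was by far the most abundant member. Its normalized counts were 1292, 1086, 1236 and 628 in control rats 1 to 4, and 288, 457, 432 and 363 in AA-treated rats 1 to 4. All AA-treated rats were below all control rats, and control rat 4 was low for its group. The mean was 1061 ± 301 (SD, n = 4) in control and 385 ± 75.6 (SD, n = 4) in AA-treated rats, so that AA-treated rats held 36.3% of the control level. The fitted log2 fold change was -1.46 (standard error 0.26). The lowest control rat was 1.38-fold above the highest AA-treated rat.

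miR-135b, which shares the seed, was present at a far lower level. Its normalized counts were 98.7, 125, 97.7 and 92.9 in control rats 1 to 4, and 34.8, 54.6, 40.4 and 20.4 in AA-treated rats 1 to 4. The groups did not overlap here either, and control rat 4 lay close to its group. The mean was 104 ± 14.6 (SD, n = 4) in control and 37.6 ± 14.2 (SD, n = 4) in AA-treated rats, or 36.2% of the control level. With a fitted log2 fold change of -1.46 (standard error 0.32), miR-135b was lower by the same factor as miR-135a, 2.76-fold against 2.75-fold, well within either standard error. The lowest control rat was 1.7-fold above the highest AA-treated rat.

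Since both carry the seed AUGGCUU, their normalized counts were also added. The sum was 1391, 1211, 1334 and 721 in control rats 1 to 4 and 323, 511, 472 and 384 in AA-treated rats 1 to 4. The group means were 1164 ± 305 and 423 ± 85.1 (SD, n = 4 each), a 2.76-fold difference. The sum followed miR-135a, which supplied most of it in every rat.

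miR-135a*, the opposite arm of the miR-135a hairpin, was scarce. It had 27, 13, 17 and 19 counts in control rats 1 to 4 and 5, 2, 4 and 9 in AA-treated rats 1 to 4. The corresponding normalized counts were 28.1, 14.3, 16.1 and 23.2 against 5.61, 1.56, 3.94 and 7.33. The ranges did not overlap, but the AA-treated values rest on at most 9 reads each. The means were 20.4 ± 6.39 and 4.61 ± 2.46 (SD, n = 4 each), or 22.6% of the control level. The fitted log2 fold change of -2.13 had a standard error of 0.47, the widest of the 3 members with a fold change.

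miR-135b*, the opposite arm of the miR-135b hairpin, was at the limit of detection. It had 0, 1, 0 and 3 counts in control rats 1 to 4 and 2, 0, 0 and 0 in AA-treated rats 1 to 4. No rat had more than 3 counts, the upper limit that an observed count of 0 leaves for the expected count, so that no fold change is given and no difference was detectable at this depth. Limits and intervals of this kind cover counting error only, because PCR reads without molecular identifiers are not independent molecules.

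**Figure D1:**
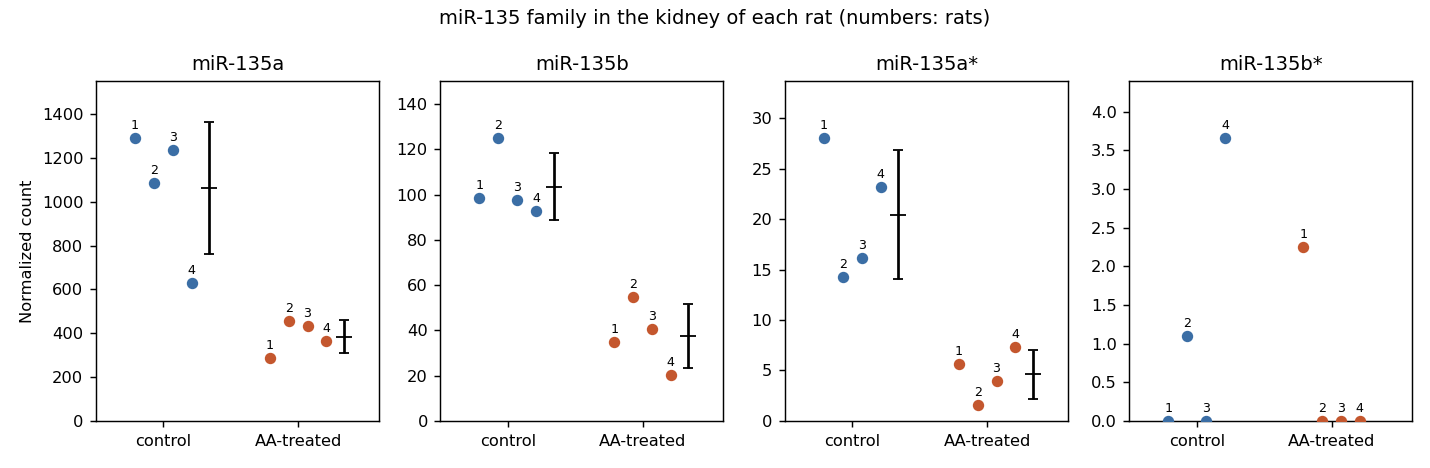
Normalized counts (y axis, starting at 0, 1 scale per panel) of the 4 members in control and AA-treated rats. Each numbered point is 1 rat, and the black bars give the mean and SD of 4 rats, left out for miR-135b* where no rat had more than 3 counts. For miR-135a, miR-135b and miR-135a* every AA-treated rat is below every control rat. Control rat 4 is far below the other control rats in miR-135a and only slightly below them in miR-135b.

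Of the 4 members, 3 were called lower in AA-treated rats, that is with an adjusted p under 0.05 when all 620 miRNAs were tested with edgeR (quasi-likelihood) and a ratio of mean normalized counts over 1.5. Among all miRNAs, 20 (3.23%) were called lower and 36 (5.81%) higher. The groups did not overlap, with AA-treated rats below, in the same 3 members and in 41 (6.61%) of all miRNAs. Because the family was chosen with this contrast in view, nothing is read from these counts. A minimum of 10 counts in at least 4 rats was met by 3 members, miR-135a* only through its control rats, and 2 members had at least 10 counts in every rat.

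Within the whole distribution, the median fitted log2 fold change of the 620 miRNAs was 0.05. Among the 370 miRNAs with a mean normalized count of at least 10, 6 had a lower fitted log2 fold change than miR-135a, 7 a lower one than miR-135b and 2 a lower one than miR-135a*. miR-135a* reached this mean only through its control rats. These places are descriptive, because the family was chosen by this contrast. When rats were scaled by their total counts, the median of all miRNAs moved to 0.31, and the values of the 3 members moved with it. With total counts, the fitted values were -1.20 for miR-135a, -1.19 for miR-135b and -1.88 for miR-135a*. Relative to that median, the value was -1.51 for miR-135a under both scalings, -2.17 with the size factors and -2.19 with total counts for miR-135a*, and changed by 0.01 for miR-135b from its -1.51 with the size factors. A change of scaling shifts all miRNAs by nearly the same amount. This likeness was therefore largely fixed in advance and lends the difference no support.

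**Figure D2:**
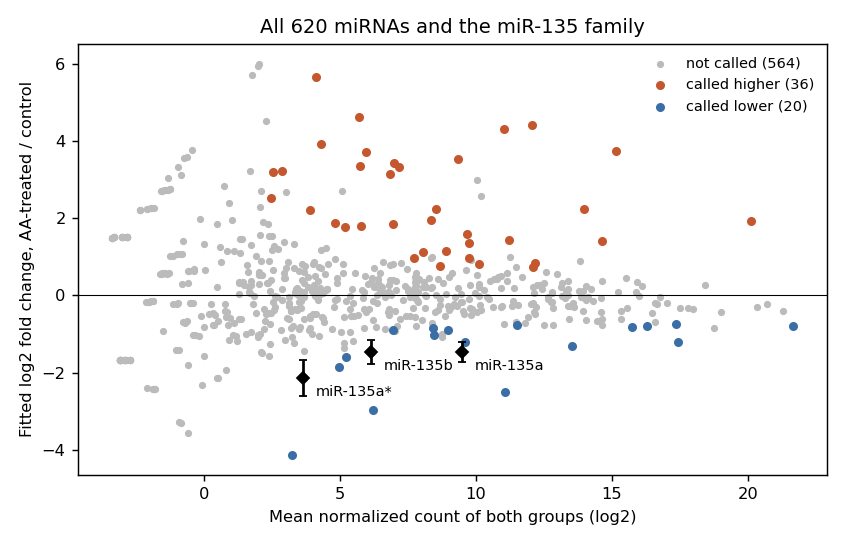
Fitted log2 fold change, AA-treated over control (y axis), against the mean normalized count of both groups on a log2 scale (x axis) for 620 miRNAs, each point being 1 miRNA. Black diamonds with standard errors mark miR-135a, miR-135b and miR-135a*, which lie at -1.46, -1.46 and -2.13 below the main cloud, and miR-135b* is not marked.

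In the control rats alone, miR-135a ranked 124th of 620 miRNAs by mean normalized count, miR-135b 233rd, miR-135a* 307th and miR-135b* 487th. In AA-treated rats their ranks were 167, 286, 431 and 529. The order of the 4 members was the same in each of the 8 rats. Ranges of neighbouring members did not overlap within a group, except those of miR-135a* and miR-135b* in AA-treated rats. Ranks compare counts, which need not be proportional to the number of molecules.

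The spread between control rats was wider for miR-135a than for miR-135b. The coefficient of variation was 28.4% for miR-135a, where counting alone gives 3.14%, and 14.1% for miR-135b, where counting gives 10.2%. Among the 367 miRNAs with a mean of at least 10 in control rats, the median was 20.6% and the middle 50% lay between 13.4% and 29.6%. The wider spread of miR-135a in control rats rests on rat 4, at 628 normalized counts. In control rats 1 to 3, miR-135a ran from 1086 to 1292 and miR-135b from 97.7 to 125. In AA-treated rats the order was turned, with 19.6% for miR-135a and 37.8% for miR-135b, against a median of 26.0% over 370 miRNAs and a middle 50% between 17.2% and 40.8%. Both members thus varied between rats no more than many other miRNAs of either group.

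Although the group ratios of miR-135a and miR-135b were equal, the balance between them varied from rat to rat. miR-135b made up 7.10%, 10.3%, 7.32% and 12.9% of the summed counts of both in control rats 1 to 4, and 10.8%, 10.7%, 8.56% and 5.31% in AA-treated rats 1 to 4. The 95% Wilson interval ran from 10.4% to 15.8% in control rat 4, the highest, and from 3.62% to 7.72% in AA-treated rat 4, the lowest. The group means were nearly the same, 9.41% ± 2.75 and 8.83% ± 2.56 (SD, n = 4 each).

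miR-135a* made up 2.13%, 1.30%, 1.29% and 3.56% of the counts of both miR-135a arms in control rats 1 to 4, and 1.91%, 0.341%, 0.905% and 1.98% in AA-treated rats 1 to 4. The means were 2.07% ± 1.07 and 1.28% ± 0.797 (SD, n = 4 each), and the ranges overlapped. The groups differed by less than the spread within them, and the interval of AA-treated rat 1 alone ran from 0.818% to 4.39%. At this depth the arms of miR-135a could not be shown to differ in their response, nor to respond alike.

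**Figure D3:**
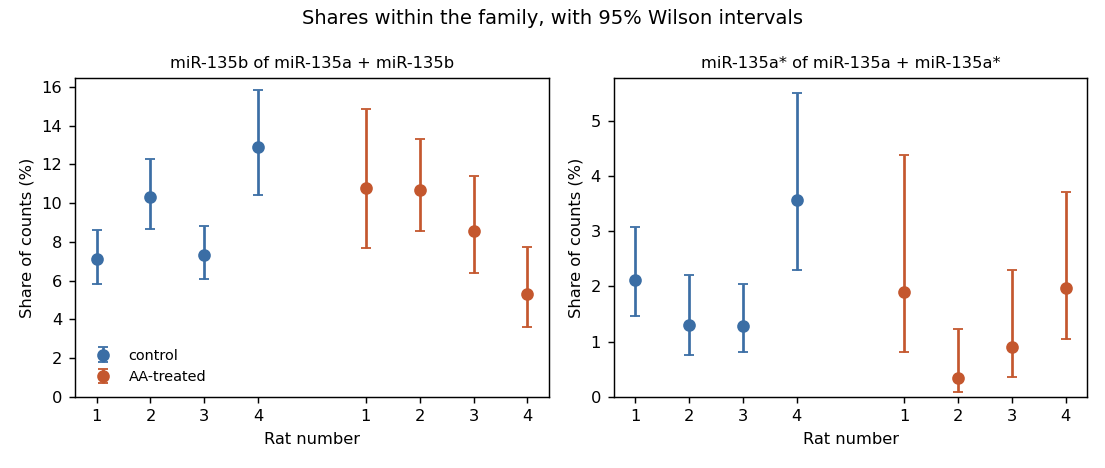
Share of counts in percent (y axis, starting at 0) by rat number (x axis), control rats in blue and AA-treated rats in orange, with 95% Wilson intervals as bars. The miR-135b share (left) ranges from 5.31% to 12.9% and the miR-135a* share (right) from 0.341% to 3.56%, and in both panels the groups overlap.

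The 3 members were also described without single libraries. Without control rat 4, the log2 ratio of the group means was -1.65 for miR-135a, -1.52 for miR-135b and -2.09 for miR-135a*. Without both rats numbered 4, those labelled with the longest treatment, the log2 ratio of the group means was -1.61 for miR-135a, -1.30 for miR-135b and -2.38 for miR-135a*. Without AA-treated rat 2 it was -1.55, -1.70 and -1.86. The equality of miR-135a and miR-135b on the log2 scale was therefore a property of the 8 rats together, and it did not hold to the same precision in these subsets.

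To find miRNAs with a like pattern, the log2 normalized counts (pseudocount 0.5) of 369 other miRNAs with a mean of at least 10 were centred on their mean over the 8 rats and compared with miR-135a by the root mean square difference. The nearest was miR-135b, at 0.42 on the log2 scale, against a median of 0.91 over the 369. It was followed by miR-495 at 0.43, miR-410 at 0.49, miR-203 at 0.50 and miR-206 at 0.50. miR-135a* came in place 165, at 0.86.

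miR-495 and miR-410 are miRNAs of the imprinted Dlk1-Dio3 locus. miR-495 had 25.1 ± 8.45 normalized counts in control and 12.2 ± 2.25 in AA-treated rats, and miR-410 had 49.6 ± 7.44 and 21.1 ± 10.7 (SD, n = 4 each). For both, AA-treated rats were below all control rats, but neither was called. miR-410 was called lower in 5 of 16 alternatives, with an adjusted p of 0.0212 from edgeR without AA-treated rat 2, and miR-495 in 1, with a filter on low counts. miR-203, a miRNA of epithelia, had 20768 ± 4667 and 13277 ± 3374, and miR-206, known from skeletal muscle, 175 ± 57.1 and 101 ± 41.1. The groups overlapped in the last 2, and neither was called, although miR-203 was called lower without both rats numbered 4 (adjusted p = 0.042 from edgeR). This likeness includes the difference between the groups. When the values were centred within each group, so that only rat-to-rat deviations counted, none of the 5 was among the nearest, and miR-135b came in place 127.

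**Figure D4:**
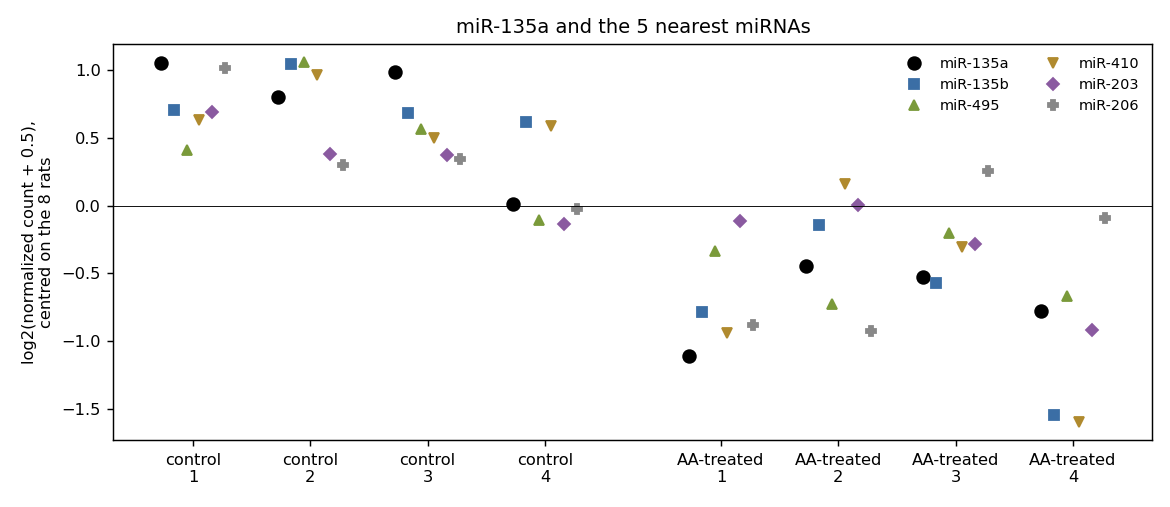
log2(normalized count + 0.5) centred on the mean of the 8 rats (y axis) for miR-135a and the 5 nearest of 369 miRNAs, by rat (x axis), each symbol being 1 miRNA. The symbols of the control rats lie mostly above 0 and those of the AA-treated rats mostly below it, and miR-135b is the nearest at a root mean square difference of 0.42.

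The family was set beside 7 lists of miRNAs known from cell types that a kidney sample can hold. The counts called in each list stand beside 3.23% called lower and 5.81% called higher among all 620 miRNAs. Of 22 renal epithelial miRNAs, 1 was called lower and none higher, with a median fitted log2 fold change of -0.32, against 0.05 over all miRNAs. At an unadjusted p under 0.05, 6 were lower and none higher, while DESeq2 called 3 lower and limma-voom 2. The 1 called by edgeR was miR-204, enriched in tubular epithelium, with 447 ± 103 normalized counts in control and 247 ± 31.9 in AA-treated rats (SD, n = 4 each, adjusted p = 0.0357 from edgeR). miR-194, transcribed with miR-192 in tubules, had 32436 ± 3350 and 19030 ± 5999, with an adjusted p of 0.0515 from edgeR. The call of miR-204 was lost in 8 of 16 alternatives. Its adjusted p from edgeR was 0.0750, 0.0860 and 0.0745 without control rat 1, 2 or 4, 0.0880 and 0.0883 without AA-treated rat 1 or 3, 0.0516 without both rats numbered 4, 0.0513 with TMM factors and 0.174 with total counts. miR-194 was called lower in 5 of 16, and without AA-treated rat 1 its adjusted p from edgeR was 0.016. The summed normalized counts of the list were 4676805 to 5491450 in control and 3413388 to 5025782 in AA-treated rats, which overlap.

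Several leukocyte miRNAs differed in the opposite direction. Of the 7 listed, 4 were called higher and none lower, with a median fitted log2 fold change of 0.96. miR-146b, induced in inflammation, rose from 5619 ± 984 normalized counts in control to 26348 ± 12391 in AA-treated rats (SD, n = 4 each, adjusted p = 2.85e-04 from edgeR), and miR-142-3p, specific to blood-forming cells, from 14047 ± 1876 to 37532 ± 11515 (adjusted p = 7.92e-04 from edgeR). The other 2 were miR-223 of myeloid cells and miR-511*, from an intron of a macrophage receptor gene. Of these 4, only miR-223 lost its call in any of the 16 alternatives, with adjusted p-values from edgeR of 0.0718, 0.0747 and 0.0674 without control rat 1, 2 or 3. The listed miRNAs not called were miR-150, miR-142-5p and miR-146a. miR-150 had 797 to 1010 normalized counts in control and 1122 to 1447 in AA-treated rats. The groups overlapped in miR-142-5p, from the same hairpin as miR-142-3p, with 627 to 992 and 402 to 1503. They also overlapped in miR-146a, with 18194 to 24690 and 17198 to 20365. The summed level of the list was 37165 to 49521 in control and 62038 to 122816 in AA-treated rats, without overlap. This summed level therefore differed between the same groups as the family, in the opposite direction, though not every miRNA of the list did. Its part in the lower level of the family was not tested.

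No miRNA of the fibroblast and smooth muscle (7 listed), endothelial (2), red cell (2) or liver (2) lists was called by edgeR with all 8 rats and the size factors. At an unadjusted p under 0.05, 2 of the fibroblast and smooth muscle list were higher and 1 lower, 1 red cell miRNA was lower, and none of the other 2 lists passed. DESeq2 called 1 of the fibroblast and smooth muscle list higher and none of the other 3 lists, and limma-voom called none. edgeR called 2 of the fibroblast and smooth muscle list higher with total counts or without AA-treated rat 1, and 1 with the filter on low counts. Without AA-treated rat 2, edgeR called both liver miRNAs lower. In the neural and neuroendocrine list of 6, 1 was called higher and 1 lower, with a median fitted log2 fold change of 0.25. The 1 called higher was miR-124, with 1.45 ± 1.56 and 13.4 ± 8.31 normalized counts (SD, n = 4 each, adjusted p = 0.0106 from edgeR). With the filter on low counts, none of this list was called higher. The 1 called lower was miR-375, a miRNA of endocrine cells, with 3653 ± 710 and 642 ± 281 normalized counts (SD, n = 4 each, adjusted p = 1.28e-04 from edgeR). Its difference was larger than those of miR-135a and miR-135b on the log2 scale, -2.51 with a standard error of 0.31.

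**Figure D5:**
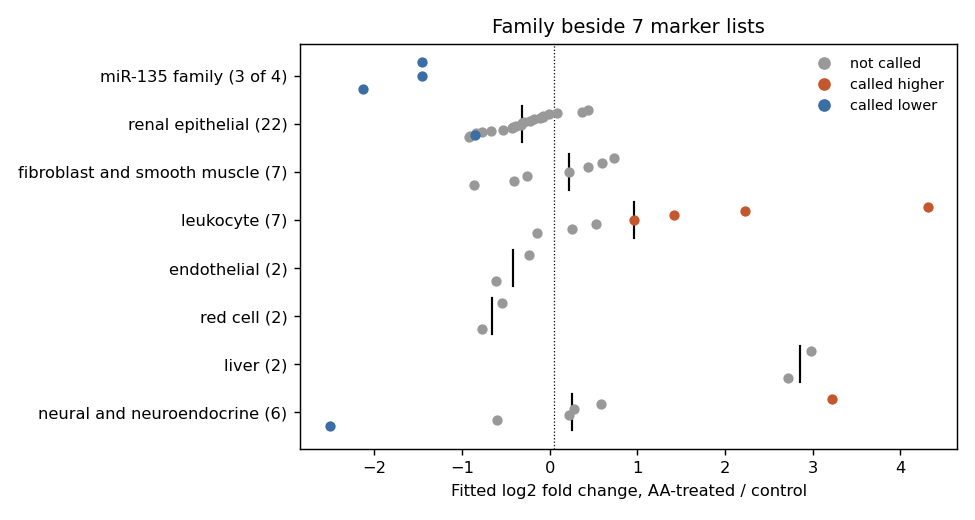
Fitted log2 fold change, AA-treated over control (x axis), for the 3 members with more than 3 counts and for the miRNAs of 7 lists (rows, number of miRNAs in brackets). Each point is 1 miRNA, coloured by whether it was called, short vertical lines give the list medians and the dotted line the median of all 620 miRNAs, 0.05. The 3 members lie between -2.13 and -1.46, while the leukocyte list is shifted to the right with a median of 0.96.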

How the data were processed

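The deposited values are raw read counts, which the authors obtained for each mature miRNA of each rat by masking adaptors, removing contaminated reads, collapsing identical reads and mapping them to miRBase (release 16) on the miRanalyzer webserver at its default settings. The rule for reads matching several miRNAs is not given in the sources used here. Every column belonged to 1 of the 8 rats, and no library repeated another.

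Size factors were computed by the median of ratios. All 620 miRNAs were fitted together in edgeR 4.0.16 (R 4.3.3; quasi-likelihood, no covariate, Benjamini-Hochberg adjustment), and the fit was tested on simulated data. The call required a ratio of group means over 1.5 and an adjusted p under 0.05. Shares have 95% Wilson intervals (scipy 1.17.1). Sequences and gene spans came from RefSeq tables of GRCr8, and the deposited table names no genome build. Alternatives for the calls were TMM, total counts, DESeq2 1.42.0, limma-voom (limma 3.58.1), a filter on low counts, a replicate block, no minimum ratio and leaving out rats. Dropping the minimum ratio left the calls at 36 higher and 20 lower. For the log2 ratios of the members, DESeq2, limma-voom and no minimum ratio were replaced. Their places were taken by the fitted edgeR value, the ratio of medians and the difference of mean log2 values.

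The members, lists and tests were chosen with earlier results of these data known. Named miRNAs were the members, miRNAs with at least 6 shared consecutive seed bases or a gene within 50 kb, the 5 nearest in pattern and up to 4 of each list with the smallest p. The remaining miRNAs of the leukocyte list were named after their values were seen.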

Additional observations from a re-analysis of the deposited data

Results flagged for a closer look

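miR-135b* in AA-treated rats was flagged because 1 rat lay far from the others, AA-treated rat 1 at 2.24 normalized counts with the other 3 at 0. This value is 2 reads. Of 20 groups of 4 rats checked in this way, 1 was flagged, where the nominal rate by chance is about 1 in 20. This rate does not hold for counts near 0, where any reads in 1 rat stand apart from 3 rats at 0.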

How the results depend on the processing

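The log2 ratios of miR-135a, miR-135b and miR-135a* kept their direction under each of the 16 alternatives run for each, moving by less than the spread between rats. They ranged from -1.65 to -1.20 for miR-135a, -1.70 to -1.19 for miR-135b and -2.45 to -1.86 for miR-135a*. The number of members called stayed at 3 in the 16 alternatives run. Leaving out rats could hardly turn the direction, because every AA-treated rat was below every control rat in these members. The family was also chosen by this difference, so that its stability is described and lends it no support. The mean shares also stayed within 1 SD. With total counts, 58 miRNAs were called higher and 11 lower, against 36 and 20, and on the 7 lists together 8 and 1, against 5 and 2. With the replicate block, 4 on the lists were called lower and 29 of all miRNAs, and with DESeq2 4 and 30. Only 1 on the lists was called lower with TMM factors or without both rats numbered 4. Leaving out 1 rat at a time gave 24 to 44 miRNAs called higher and 13 to 25 lower, the 13 without control rat 1, and on the lists 4 to 7 higher and 1 to 4 lower. The cause of these changes was not tested. Of the 5 nearest miRNAs to miR-135a, 4 were shared with pseudocount 1 and 0 when centred within each group. The rat numbers were not taken to pair the samples, because not every same-numbered pair deviated together. The correlations were -0.02, 0.13, 0.11 and 0.31 over 370 miRNAs for rats 1 to 4, and 5 of 8 rats correlated best with their own number, a hint from the data and not from the design. With the block, miR-194, miR-203 and miR-410 were also called lower, and 2 of the fibroblast and smooth muscle list higher. Depth limits miR-135a* and miR-135b* most.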

Other observations

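The count table has a further row, rno-mir-135a*, written in lower case, which the choice of members left out. It is 1 of 61 rows with such a name, 33 of which also occur with the usual spelling, and what the spelling marks is not given in the sources used here. The row had 4, 3, 2 and 1 counts in control rats 1 to 4 and 1, 2, 1 and 1 in AA-treated rats 1 to 4. The groups overlapped, in contrast to those of the row miR-135a*, and it was not called. It was named after its values were seen.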
